A study of Mus musculus with 2 samples.

Results

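The 40 genes described here are genes of the cell division cycle, listed by symbol and found as 40 of the 32285 gene rows in both count matrices. They fall into 3 groups by known role: 14 genes of S phase, when DNA is copied, 20 genes of G2 and mitosis (G2/M), and 6 genes that cycling cells raise but that resting cells also transcribe (broad members). The first 2 groups are called the 34 phase members. The cells are TCRb+ CD4+ T cells that were sorted by flow cytometry from the stromal vascular fraction of mouse visceral adipose tissue (VAT). Libraries were made by 10x Genomics 3′ droplet sequencing, in which each unique molecular identifier (UMI) stands for 1 captured transcript. The comparison was between mice lacking CD27, a costimulatory receptor of T cells (CD27-/-, library CD27_KO), and wild type mice (library WT). The genotype label reads C57BL/6 for both libraries, the sources used here give neither age nor treatment, and the CD70 transgene named in the design is not analysed here. Cells of mice were pooled before sorting, 10 by the protocol, which can be read as 10 of each genotype or 10 in all. Each genotype was therefore 1 pool and 1 library, so there is no spread between animals and no test. Each 95% interval below covers counting error only, and "higher" or "lower" compares these 2 libraries, not the genotypes at large.

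After filtering, 6217 T cells with 15892094 UMIs remained in the WT library and 6789 with 19787327 UMIs in the CD27_KO library, with medians of 1933 and 2200 UMIs per cell. Cd27 gave 2077 UMIs in WT and 15 in CD27_KO, as the labels state. A UMI of the T cell receptor gene Trbc2 was found in 84.7% and 84.6% of these cells, one of Cd4 in 25.3% and 30.8%, and one of Cd8a in 0.0483% and 0.0589%. The libraries shared 12 cell barcodes, and none of them belonged to a cell with 10 or more phase members. The doublet caller Scrublet marked 0 of 6338 and 1 of 6853 cells, so it did not work here, and no cell was removed as a doublet.

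Cells that enter the cycle first load the Mcm2 to Mcm7 helicase onto DNA and make nucleotides and the polymerase clamp Pcna. After replication they raise the mitotic kinases, cyclins, kinesins and centromere proteins. The E2F factors act on many S phase promoters, and the DREAM and MuvB complexes act on many G2/M promoters through the cell cycle homology region (CHR) together with NF-Y at CCAAT boxes. Most T cells in tissue are resting, and at any moment few cells transcribe the phase members.

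The promoters of the members carry this division in their letters, and the stretches below are shown because each holds the words that mark its group. Of the 40 members, 33 matched a RefSeq promoter window of the GRCm38.p6 build, which runs from 250 bases before to 50 bases after the annotated start. Words were searched on both strands: TTTGAA and TTCGAA for the CHR, CCAAT for the CCAAT box, and TTTGGCGC, TTTCCCGC, TTTCGCGC and TTTGCCGC for E2F. E2F words can overlap each other. Each stretch has 120 bases, is written 5′ to 3′ on the strand of its gene, and has its matches in capitals.
Top2a, chr11:99024190-99024309, minus strand: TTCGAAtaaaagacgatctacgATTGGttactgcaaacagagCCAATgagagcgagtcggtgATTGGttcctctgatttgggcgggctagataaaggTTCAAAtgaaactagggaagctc
Mki67, chr7:135716380-135716499, minus strand: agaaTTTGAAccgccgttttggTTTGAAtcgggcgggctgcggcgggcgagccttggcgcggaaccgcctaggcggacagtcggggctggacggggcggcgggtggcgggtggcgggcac
Cdk1, chr10:69352939-69353058, minus strand: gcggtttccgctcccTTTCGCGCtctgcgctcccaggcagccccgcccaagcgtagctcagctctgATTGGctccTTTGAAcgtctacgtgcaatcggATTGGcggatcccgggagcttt
Cdc20, chr4:118437353-118437472, minus strand: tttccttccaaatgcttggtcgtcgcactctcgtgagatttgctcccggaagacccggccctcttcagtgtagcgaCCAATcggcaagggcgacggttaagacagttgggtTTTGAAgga
Kif11, chr19:37376262-37376381, plus strand: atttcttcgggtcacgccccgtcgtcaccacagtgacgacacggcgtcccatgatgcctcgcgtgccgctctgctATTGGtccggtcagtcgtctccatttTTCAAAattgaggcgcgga
Mcm6, chr1:128359706-128359825, minus strand: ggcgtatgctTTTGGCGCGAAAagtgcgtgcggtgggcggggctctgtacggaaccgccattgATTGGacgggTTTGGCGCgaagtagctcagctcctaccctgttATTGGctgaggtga
A CHR word stood in 13 of 17 G2/M windows, in 2 of 12 S phase windows (Mcm2 and Mcm7) and in 19.4% of all 27025 windows. All of those 13 G2/M windows also held a CCAAT box, a pair found in 7.70% of all windows. CCAAT alone was present in 9 of 12 S phase windows and 37.9% of all windows, so it did not divide the groups. An E2F word stood in 5 of 12 S phase windows (Mcm3, Mcm5, Mcm6, Mcm7 and Pclaf), in 1 of 17 G2/M windows (Cdk1) and in 2.32% of all windows. Among the broad members Hmgb2 and Cks1b held a CHR word. These are matches of letters, and binding was not measured.

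The phase groups were first checked against the cells themselves. Cells with a UMI of 10 or more of the other phase members were divided by which list had the larger fraction of its own members detected, S phase (of 14) or G2/M (of 20), each gene being left out of its own division. By all 34 members, 40 of 61 such WT cells leaned to S phase (65.6%, exact interval 52.3% to 77.3%), and 90 of 131 such CD27_KO cells did (68.7%, 60.0% to 76.5%). By plain numbers, 29 of 61 and 62 of 131 had more S phase than G2/M members, since the G2/M list is longer. With both libraries together, the level in S-leaning over G2/M-leaning cells had an interval above 0 for 11 of 14 S phase members, and 19 of 20 G2/M members lay below 0. Members of a group were listed as such and tend to be detected together, so this describes the lists and is not a test of them.

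Among S phase members Mcm5, a helicase subunit, stood furthest apart, at 116 CPM (UMIs of the gene scaled to the same total number of UMIs in each set of cells) in S-leaning and 26.5 CPM in G2/M-leaning cells (log2 ratio 2.13). Rrm2, the small subunit of ribonucleotide reductase, was at -0.12, and the intervals of Rrm2, Tk1 and Ccne1 spanned 0. At the mitotic end were Ube2c, which works with the anaphase-promoting complex, at 60.7 against 507 CPM (-3.06), and the B-type cyclin Ccnb2 at 65.9 against 384 CPM (-2.54). Mki67 and Top2a, the usual markers of proliferation, separated the phases weakly, at -0.43 and -0.54. Cdk1, the kinase that drives entry into mitosis, had an interval from -0.94 to 0.05. All 6 broad members lay on the G2/M side, from Stmn1 at -0.19 to Cks2 at -1.80.

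**Figure D1:**
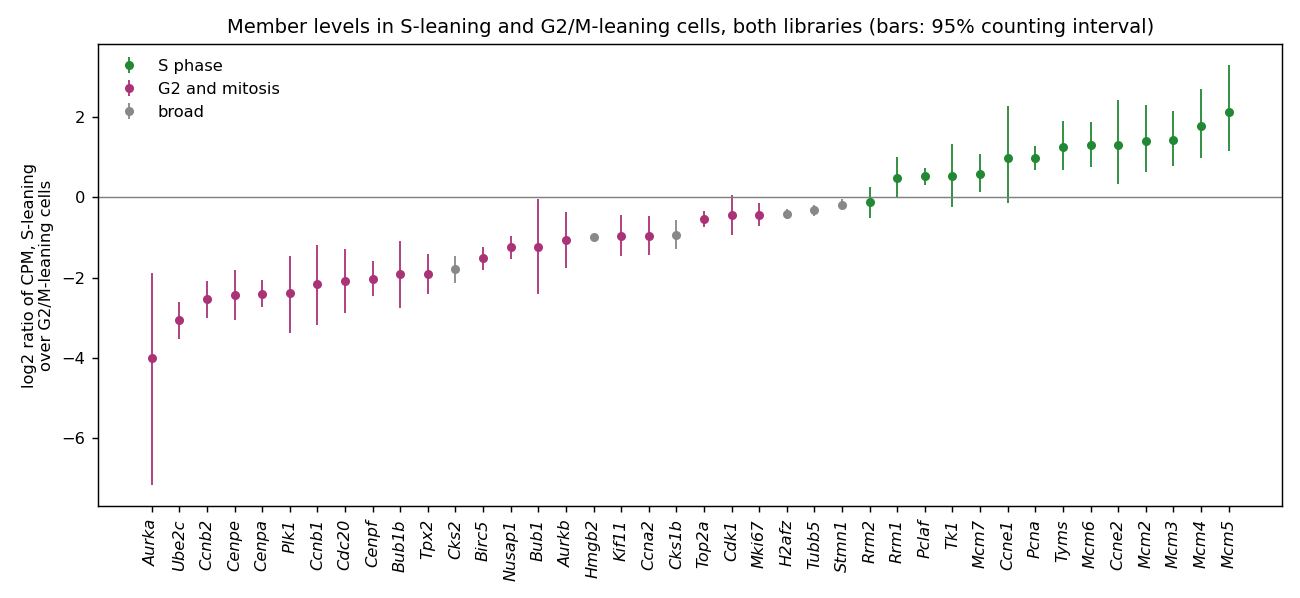
Log2 ratio of the level (CPM) in S-leaning over G2/M-leaning cells for each member, both libraries together, with 95% counting intervals; points are coloured by group. S phase members lie mostly above 0, with a median of 1.13, and G2/M members below it, with a median of -1.91.

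Over all T cells both phase groups were higher in the CD27_KO library, the G2/M members by more. Summed S phase members gave 4972 UMIs (313 CPM) in WT and 8549 UMIs (432 CPM) in CD27_KO, a log2 ratio of 0.47 (0.42 to 0.52). Summed G2/M members gave 2825 UMIs (178 CPM) and 5452 UMIs (276 CPM), a log2 ratio of 0.63 (0.57 to 0.70). All ratios are CD27_KO over WT. The median of the 9756 genes with 100 or more UMIs was at 0.17, and 7.10% of them were 1.5-fold or more higher in CD27_KO and 2.87% lower. In a pool, more cycling cells and more transcript per cell give the same sum, and they are separated further on only as far as cells can be counted.

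All 14 S phase members had 100 UMIs, and 5 of them were 1.5-fold or more higher in CD27_KO, with none lower. Pclaf, which binds Pcna at replication forks, had 331 UMIs in WT and 911 in CD27_KO, or 20.8 and 46.0 CPM, a log2 ratio of 1.14 (0.96 to 1.33). Rrm2 had 131 and 286 UMIs (0.81), and Rrm1, the large subunit of the same reductase, 252 and 513 UMIs (0.71). The other 2 were the helicase subunits Mcm5, with 159 and 313 UMIs (0.66), and Mcm2, with 217 and 408 UMIs (0.59). The lowest ratio was that of Ccne1, one of the E-type cyclins, which start replication. It had only 73 and 94 UMIs, a log2 ratio of 0.05 with a wide interval from -0.41 to 0.51. Pcna, the most abundant S phase member, lay between Ccne1 and these 5, with 1485 and 2429 UMIs, 93.4 and 123 CPM (0.39, 0.30 to 0.49). Mcm6 had 717 and 1157 UMIs (0.37), and the remaining S phase members ran from 0.20 for Mcm4 to 0.45 for the thymidylate synthase gene Tyms. The 3′ end of Mcm5 has near-identical stretches in 11 other genes and that of Mcm7 in 1, so reads counted for these genes may come from others.

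Of the 20 G2/M members 14 had 100 UMIs, and 13 of these 14 were 1.5-fold or more higher in CD27_KO. The 6 below that count were Ccnb1, Aurka, Aurkb, Bub1, Bub1b and Plk1. Top2a, the topoisomerase that untangles replicated DNA, had 380 and 1099 UMIs, 23.9 and 55.5 CPM, a log2 ratio of 1.22 (1.05 to 1.39). Mki67, whose protein coats mitotic chromosomes, had 200 and 552 UMIs (1.15, 0.91 to 1.39), and Birc5, a subunit of the chromosomal passenger complex, 130 and 350 UMIs (1.11). Ube2c was the furthest apart of those counted, with 67 and 216 UMIs (1.37, 0.97 to 1.79). Cyclins differed among themselves: Ccna2 had 44 and 118 UMIs (1.11), Ccnb2 93 and 197 (0.77), and Ccnb1 only 35 and 52 (0.25, -0.39 to 0.92). The kinesins Kif11 (58 and 151 UMIs, 1.06) and Cenpe (57 and 128, 0.85), the spindle factors Tpx2 (71 and 177) and Nusap1 (141 and 331, 0.91), Cdk1 (74 and 187, 1.02) and Cenpf (71 and 172, 0.96) made up most of the rest. Reads of Cenpf are of uncertain origin, since its 3′ end has near-identical stretches in 19 other genes. At 20 UMIs all 20 members were counted and 16 were higher, against 10.7% of all genes, and none was lower, against 5.93%. Among the sparse members the Aurora kinase Aurkb had 19 and 68 UMIs (1.52, 0.77 to 2.34), and the anaphase activator Cdc20 38 and 79.

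Cenpa, the centromeric histone H3, was the exception. It had 1260 UMIs in WT and 1410 in CD27_KO, 79.3 and 71.3 CPM, and was the one G2/M member lower in CD27_KO (-0.15, -0.26 to -0.04). It made up 1260 of the 2825 G2/M UMIs in WT, so the summed G2/M ratio is weighted toward it. Only 6.19% of its WT UMIs and 18.3% of its CD27_KO UMIs came from cells with 10 or more of the other phase members, against 43.9% and 63.5% for Top2a and 86.4% and 91.5% for Ccna2.

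The broad members did not move together. Hmgb2, a chromatin protein of the high mobility group, had 14159 and 28322 UMIs, 891 and 1431 CPM (0.68, 0.66 to 0.71), and was detected in 66.9% and 82.9% of cells. H2afz, a histone H2A variant, had 11508 and 12523 UMIs, 724 and 633 CPM, and was lower in CD27_KO (-0.19, -0.23 to -0.16). The microtubule-destabilising gene Stmn1 had 1310 and 2389 UMIs (0.55), but counting each cell once per gene turned it to -0.15. The beta-tubulin gene Tubb5 was at 0.08, and centring on the median gene turned it to -0.09. Cks1b and Cks2, small subunits that bind cyclin-dependent kinases, were at 0.47 and -0.02. Cks1b shares its 3′ end with Cks1brt.

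**Figure D2:**
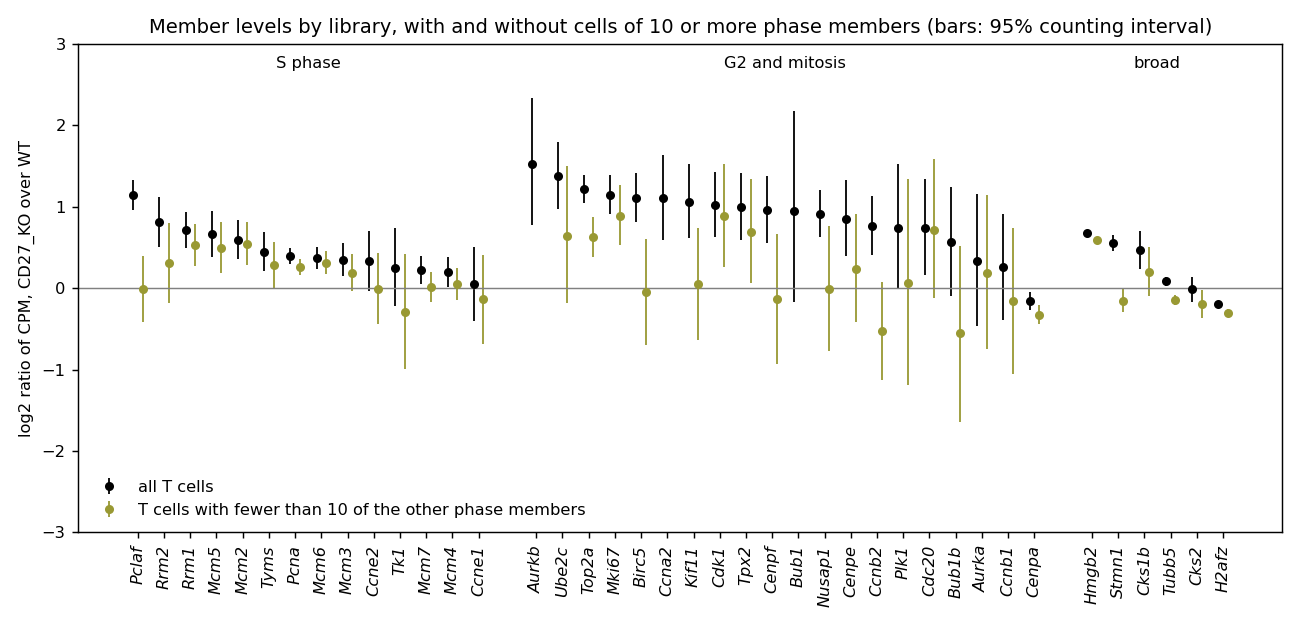
Log2 ratio of CPM, CD27_KO over WT, for each member with 95% counting intervals, over all T cells and without cells with 10 or more phase members. Over all T cells most G2/M members lie near 1 while Cenpa lies below 0. In cells with fewer than 10 of the other phase members most members lie closer to 0.

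Phase members were spread thinly over many cells and densely over few. No phase member was detected in 50.5% of WT and 42.8% of CD27_KO cells, and a single one in 30.1% and 32.1%. Cells with a single member held 27.0% of the phase member UMIs in WT and 17.6% in CD27_KO. A UMI of 3 or more phase members was found in 473 WT cells (7.61%) and 778 CD27_KO cells (11.5%), called phase carriers below, a ratio of shares of 1.51 (1.34 to 1.69). Counting all 40 members instead gave 47.6% and 56.3%, because Hmgb2, H2afz and Tubb5 are found in many cells. That rule therefore selects no cycling class. Carriers were also the deeper cells, with medians of 4734 and 5056.5 UMIs against 1868 and 2084 in the others. After every cell was thinned to 1300 UMIs, leaving out 536 and 54 shallower cells, 118 of 5681 WT cells (2.08%) and 234 of 6735 CD27_KO cells (3.47%) were phase carriers, a ratio of 1.67 (1.34 to 2.11). For 5 or more members at that depth the ratio was 2.09 (1.46 to 3.04). At the same depth the rule over all 40 members gave 24.96% and 29.9% (1.20, 1.12 to 1.29).

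Cells with 10 or more phase members, a cut added after the values were seen, stood at the far end of this range. There were 61 in WT (0.981%) and 131 in CD27_KO (1.93%), a ratio of 1.97 (1.44 to 2.71), and no cell had more than 27. Between 3 and 9 members lay 412 and 647 cells, with no gap before the cut. The 61 and 131 cells held 25.04% and 42.2% of all phase member UMIs. Their median depth was 4868 and 5660 UMIs against 1923 and 2174 in the rest. A cluster left out of the T cells, led by Cd74 and H2-Aa and carrying plasmacytoid dendritic and myeloid markers, had 3 or more phase members in 22.8% and 24.5% of cells at medians of 4821.5 and 4887 UMIs, so 3 members in a deep cell are not specific to a cycling T cell.

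**Figure D3:**
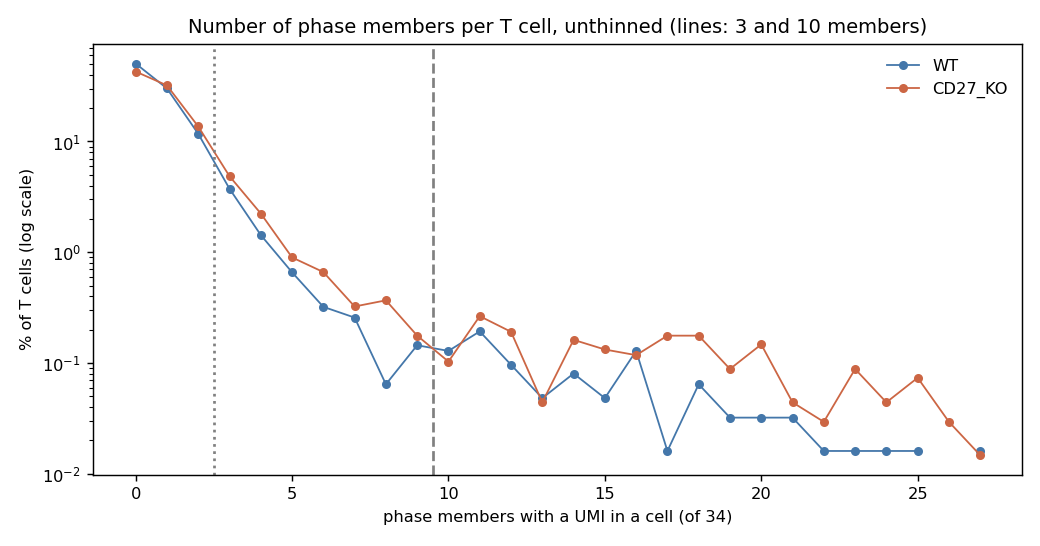
Share of T cells (percent, log axis) by the number of the 34 phase members detected, for WT and CD27_KO. The curves run side by side, with the CD27_KO share above the WT share in most bins from 3 members upward, and 9 WT and 32 CD27_KO cells have 20 or more.

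Taking carriers out removed most of the difference in the sums, as a cut on the members themselves must in part. Without phase carriers the S phase sum was at 0.14 (0.06 to 0.21) and the G2/M sum at -0.05 (-0.16 to 0.07). Of the members still at 100 UMIs, 0 of 10 S phase and 1 of 3 G2/M members were 1.5-fold or more higher, against 7.02% of all genes in the same cells. None was lower, against 2.73% of genes. Without cells with a UMI of 3 or more of all 40 members the sums were at 0.03 (-0.14 to 0.20) and -0.23 (-0.50 to 0.04). Of the 10 members measured there 2 were higher and 3 lower, against 10.2% and 2.20% of genes. Without the cells with 10 or more phase members they were at 0.24 (0.18 to 0.30) and 0.04 (-0.05 to 0.13), and 0 of 13 S phase and 3 of 4 G2/M members were 1.5-fold or more higher, against 6.70% of genes, and none lower, against 2.75%.

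Single members differed in this, also when each was left out of the count that defined its cells. In cells with fewer than 10 of the other phase members, Top2a kept a log2 ratio of 0.63 (0.38 to 0.87), Mki67 of 0.89 (0.53 to 1.27) and Cdk1 of 0.88 (0.26 to 1.53). In cells with fewer than 3 others Top2a was at 0.80 (0.51 to 1.09) and Mki67 at 0.66 (0.22 to 1.11). Pclaf was at -0.02 and -0.54 in the same sets, Birc5 at -0.05 and Nusap1 at -0.01 below 10 others. Of S phase members below 10 others, Mcm2 was at 0.55, Rrm1 at 0.53, Mcm5 at 0.50 and Pcna at 0.26. Hmgb2 was at 0.59 in both sets, Stmn1 was at -0.15 and -0.49, and Cenpa was below 0 at -0.33 and -0.29.

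Inside the cells with 10 or more phase members the sums still differed, while fewer single members did. The summed S phase members were at 0.38 (0.27 to 0.48) and the G2/M members at 0.52 (0.42 to 0.62). Of members with 20 UMIs there, 0 of 14 S phase and 6 of 19 G2/M members were 1.5-fold or more higher in CD27_KO, against 15.7% of 6272 genes, and none was lower, against 8.53%. In phase carriers, a wider set, 1 of 14 S phase and 9 of 20 G2/M members were higher, against 9.68% of genes, and none lower, against 4.94%. Chosen by the other members, Top2a was at 0.84, Pclaf at 0.56 and Mki67 at 0.53. S phase members made up 49.1% and 46.6% of phase member UMIs, and the median cell had 7 S phase and 7 G2/M members in WT and 8 and 9 in CD27_KO. In thinned phase carriers the S phase share was 49.8% (46.1% to 53.5%) and 51.7% (49.4% to 54.0%), intervals that overlap. The share falls with the number of members asked for: at 10 or more members after thinning, from 10 and 34 cells, it was 38.4% and 35.3%. Both phases were detected in 68.6% and 72.6% of thinned phase carriers.

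The cyclins showed how far detection follows the cut. Ccna2, the cyclin of S phase and G2, had a UMI in 44.3% and 50.4% of cells with 10 or more members and in 0.0650% and 0.135% of the others. Ccnb2 was in 41.0% and 50.4% against 0.487% and 0.451%. The G1 cyclins were less concentrated, with Ccne1 in 24.6% and 20.6% against 0.796% and 0.841%. Members also went together cell by cell, within a phase and across phases: Ccnb2 was found in 49.2% and 58.5% of cells with Birc5 but in 0.885% and 1.41% of all T cells, and Top2a in 33.8% and 41.3% of cells with Mki67 but in 3.73% and 6.48% of all. The S phase member Pclaf was in 36.9% and 41.3% of cells with Mki67 and in 1.59% and 2.65% of all. Cenpa was loose again, with Mki67 in 5.91% and 11.6% of its cells. These shares are descriptions across cells of 1 pool, and deeper cells show more of every pair.

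**Figure D4:**
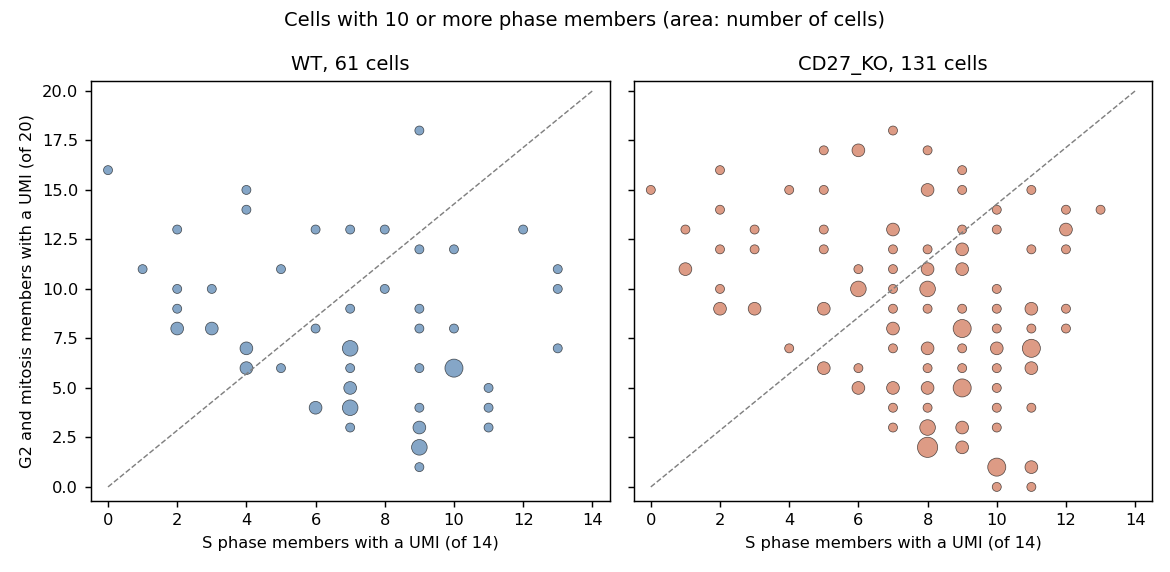
Number of S phase members (x axis, of 14) against number of G2/M members (y axis, of 20) detected in each cell with 10 or more phase members, for WT and CD27_KO. Cells with at most 3 G2/M members number 8 and 22, and those with at most 3 S phase members 10 and 14; most cells in both libraries have members of both phases.

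T cell states were taken from a clustering of both libraries in which 137 listed cell cycle genes were left out. Clusters are called "-like" only where markers supported a name: Th1-like (led by Ly6c2, Mmp9 or Itga1), Th2-like (Calca or Il5), Treg-like (Areg or Ctla4), Th17-like, naive-like, NK-receptor-like and interferon-like. The others are named by a leading gene. At 1300 UMIs per cell, naive-like cells had the fewest phase carriers, 5 of 1261 in WT (0.397%) and 0 of 319 in CD27_KO, a count that allows up to 1.15% by exact binomial interval. Itga1 Th1-like cells were at 5 of 79 (6.33%) and 22 of 644 (3.42%), and Il5 Th2-like cells at 3.41% and 3.15%. The other states lay between 1% and 4%, apart from Gzma cells (0 of 46 and 6.00%) and interferon-like cells (0 of 32 and 3.17%). Examples are Areg Treg-like cells, at 1.45% and 1.44%, and Calca Th2-like cells, at 1.69% and 1.18%. Within each state the ratio of the library shares had an interval that included 1 at this depth. Without thinning the ratio in Ctla4 Treg-like cells was 2.98 (1.45 to 6.71). At resolution 1.5, thinned, it was 3.61 (1.72 to 7.79) in Treg-like and 2.66 (1.36 to 5.50) in follicular helper or memory-like cells. The latter cluster had Ccnb2 and Pclaf among its leading genes and held 9 WT and 19 CD27_KO cells with 10 or more phase members. With another seed that class had 2 of 79 WT and 0 of 45 CD27_KO carriers, and the Treg-like ratio was 1.70 (0.83 to 3.38). The Il5 Th2-like and Itga1 Th1-like cells were also deep, with medians of 5276 and 5901 and of 3573.5 and 3624 UMIs, and the part of this in their shares after thinning was not tested.

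At the thinned depth many phase carriers gathered in a cluster that names no T cell state. This cluster, led by the histone genes Hist1h2ap and Hist1h2ae and still formed without the listed genes, held 37 WT and 113 CD27_KO cells, of which 31 of 37 (83.8%) and 96 of 112 (85.7%) were phase carriers at the thinned depth. Of the phase carriers before thinning it held 7.61% in WT and 14.3% in CD27_KO. Areg Treg-like cells held 40.6% and 5.40% of them, and Il5 Th2-like cells 5.07% and 21.9%. Of the cells with 10 or more phase members the histone-led cluster held 32 (WT) and 85 (CD27_KO). Without it, 87 of 5644 WT cells (1.54%) and 138 of 6623 CD27_KO cells (2.08%) were phase carriers, a ratio of 1.35 (1.03 to 1.79). Outside it, the cells with 10 or more members fell in different states: 13 WT and 1 CD27_KO cells in Areg Treg-like, 3 and 13 in Il5 Th2-like, and 2 and 11 in Itga1 Th1-like cells. The sizes of these states differed in the same direction, with 1206 and 211, 88 and 444, and 80 and 645 cells. When 146 further genes that go with these cells were also left out of the clustering, Th1-like clusters (956 and 1252 cells) held 21 WT and 39 CD27_KO of them. Unnamed clusters (1149 and 2718 cells) held 21 and 72. Of these, 14 and 23 were in a Th1-like cluster whose leading genes still included Pclaf, Birc5 and Ccnb2, and 5 and 32 in an unnamed cluster led by Pclaf. The Th1-like name of the dividing cells is therefore weak.

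**Figure D5:**
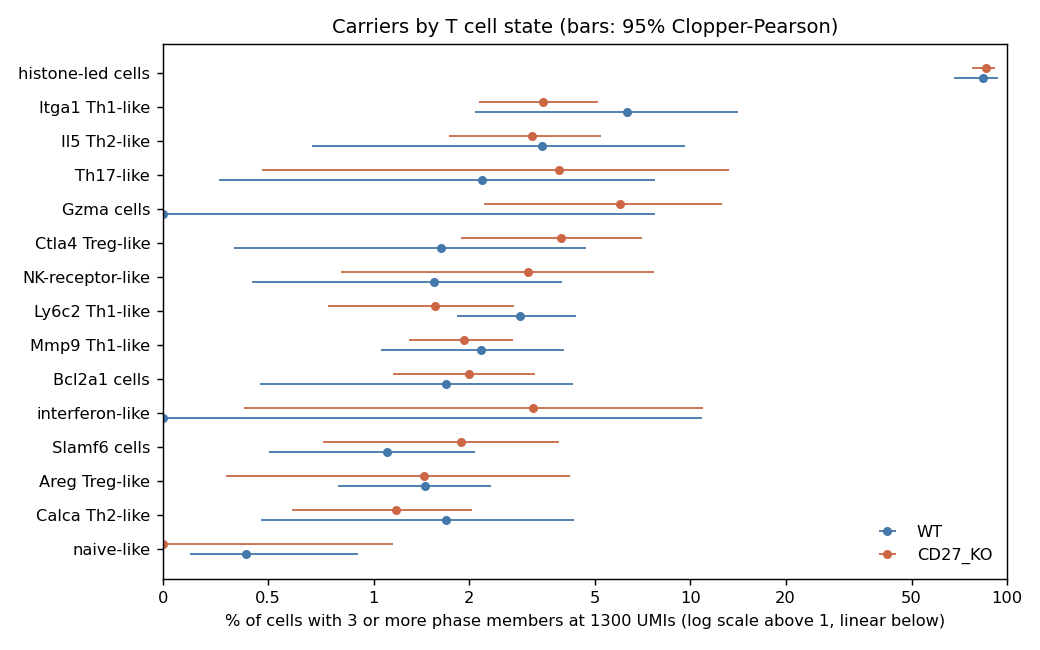
Share of phase carriers (percent of cells thinned to 1300 UMIs, on a scale that is logarithmic above 1 and linear below) in each T cell state and library, with exact 95% intervals. The histone-led cells lie above 80% in both libraries, naive-like cells lowest among states with carriers in WT, and the intervals of the libraries overlap in each state.

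With every state given the mean of its shares in both libraries, the phase carrier shares were 2.89% and 2.78%, a ratio of 0.96. Other clusterings and cell filters gave 0.91 to 1.13. The value weights the histone-led cluster, which gathers carriers, alike in both libraries. With the further genes left out, so that carriers were spread over other clusters, the ratio was 1.35. The levels behaved in the same way: at equal state shares the G2/M sum was at 0.09 with the histone-led cluster and at 0.55 with the further genes left out, and the S phase sum at 0.11 and 0.30. How much of the difference belongs to state sizes therefore depends on how carriers are assigned to states.

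Members found in resting cells differed in level between states. Cenpa was highest in histone-led cells, at 283 and 372 CPM. Outside them it was highest in Treg-like cells, at 98.4 and 125 CPM in the Areg and 148 and 168 CPM in the Ctla4 cluster, and lowest in Calca Th2-like cells, at 29.7 and 21.6 CPM. In naive-like cells it was at 63.0 and 116 CPM (0.88, 0.48 to 1.27). At equal state shares its ratio turned from -0.15 to 0.17, and to 0.14 with the further genes left out. H2afz was likewise high in Areg Treg-like cells, at 1152 and 1074 CPM, and low in naive-like cells, at 336 and 322 CPM, and at equal state shares stood at -0.04 and -0.14. Hmgb2 was at 316 CPM in naive-like cells of both libraries, at 1339 and 1550 in Itga1 Th1-like and at 6328 and 7736 in histone-led cells. Its ratio at equal state shares was 0.19 and 0.40. Stmn1 moved in opposite directions in the Treg-like states. In Areg Treg-like cells it was at 54.2 and 18.4 CPM (-1.56), from 248 and 16 UMIs. In Ctla4 Treg-like cells it was at 18.2 and 57.2 CPM (1.65), from only 8 and 46 UMIs. Cells with 10 or more phase members differed in the same directions. They were 13 of 1206 and 1 of 211 Areg cells, and 0 of 214 and 4 of 266 Ctla4 cells. The part of such cells in these Stmn1 levels was not tested.

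Phase member sums by state ranged widely. The S phase sum was at 184 and 242 CPM in naive-like cells (0.40), at 209 and 256 in Calca Th2-like cells (0.29, and 0.12 without cells with 10 or more members) and at 329 and 285 in Ly6c2 Th1-like cells, a log2 ratio of -0.21 (-0.38 to -0.04) that became -0.09 (-0.27 to 0.08) without the 4 WT cells with 10 or more members. In histone-led cells the sum was 3349 and 3455 CPM. The G2/M sum was at 74.2 and 126 CPM in naive-like cells (0.77), of which Cenpa gave the larger part, while Top2a there was at 4.5 and 4.4 CPM. Mcm6 was at 29.6 and 59.6 CPM in Mmp9 Th1-like cells (1.01), where the S phase sum was at 0.07 (-0.11 to 0.27). The median of the 11 S phase members with 20 UMIs there was -0.10, against 0.15 over all genes.

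Other genes of the cycle, from lists that do not include the members, showed the same order of groups. Of 45 other S phase genes 37 had 100 UMIs and 10 were 1.5-fold or more higher in CD27_KO, with none lower and a median log2 ratio of 0.39. The share over all genes is 7.10%. Among them were Uhrf1, which keeps DNA methylation through replication, at 1.14, and the polymerase gene Pole at 1.01. Of 52 genes listed as other G2/M, 32 had 100 UMIs, 21 were higher, and the median was 0.72. Among them were the kinetochore gene Knl1 at 1.61 and the cohesin acetyltransferase Esco2 at 1.44. The phase given to genes of these lists was not checked in the cells, so single genes may belong to the other phase. Of 30 cyclins, E2F factors and inhibitors 24 were measured and 2 were higher, close to that share, with E2f1 at 0.70 and the MuvB subunit Lin54 at 0.66. Of 12 quiescence genes 2 were higher and 2 lower, the latter Klf2 (-0.88) and Bach2 (-0.60), which keep T cells resting or undifferentiated. Without phase carriers 1 of 30 other S phase and 1 of 15 other G2/M genes were higher, against 7.02% of all genes. Quiescence genes kept 2 in each direction there, where 2.73% of all genes were lower. The 12 genes outside all lists that were most raised in phase carriers of both libraries included the histones Hist1h1b (44.7-fold in WT and 73.0-fold in CD27_KO) and Hist1h2ap (15.7 and 38.9), the repair enzyme Neil3 (39.7 and 50.03) and the centromere gene Cenph (18.4 and 18.8). Outside carriers Neil3 had only 3 and 5 UMIs, Cenph 7 and 14 and Hist1h1b 8 and 19, so their folds are imprecise. Hist1h2ap had 272 and 136 there. The genes were picked as highest in these same carriers.

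Lineage genes were compared between the 61 and 131 cells with 10 or more phase members and the remaining T cells of their library, as ratios of CPM. Ccr7, a marker of naive cells, was at 0.44 of the rest in WT (0.24 to 0.73) and 0.19 in CD27_KO (0.05 to 0.48). Ifng, the cytokine of Th1 cells, was at 1.12 (0.75 to 1.59) in WT and 1.92 (1.65 to 2.23) in CD27_KO. Tbx21, the Th1 factor, was at 1.15 (0.55 to 2.13) and 1.13 (0.74 to 1.65). Of the Th2 genes in CD27_KO, Il4 was at 0.29 (0.16 to 0.48), Il1rl1 at 0.57 (0.49 to 0.67) and Gata3 at 0.71 (0.61 to 0.81), but Il5 at 1.13 (0.66 to 1.82). The WT values were not low: Il4 was at 1.92 (0.81 to 3.87, from 8 UMIs), Il1rl1 at 1.05 (0.85 to 1.28) and Gata3 at 1.16 (0.95 to 1.41). In WT Il5 was at 5.20 (3.21 to 8.06), from 23 UMIs in 3 of the 61 cells, and at 1300 UMIs none of the 61 had one. Foxp3 was at 0.62 (0.34 to 1.05) and 0.75 (0.44 to 1.20), and Cd4 at 0.86 and 0.91. Some directions turned with the rule: in phase carriers against other cells Foxp3 was at 1.496 (1.28 to 1.75) and 1.38 (1.14 to 1.66), and Il1rl1 in CD27_KO at 1.15 (1.09 to 1.22). Summed B cell markers were at 87.8 CPM in these cells and 106 in the rest in WT, and at 50.1 and 84.9 in CD27_KO, and myeloid markers at 28.4 and 24.4 and at 10.5 and 16.4. Cd79a and Siglech were at 0 in these cells of both libraries. Of the CD8 gene Cd8a, 6 WT UMIs came from 1 of the 61 cells. The part of other cell types and of doublets in these values was not tested.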

How the data were processed

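The deposited files are UMI counts per gene and cell barcode, made by the authors with Cell Ranger (version 6.1.1 per the file headers) on mm10 per the submitters' processing notes. The labels name the v2 kit and the design text v3.1. Barcodes under 500 genes or over 10% mitochondrial UMIs were dropped, leaving 6338 and 6853 cells. Clustering used scanpy 1.11.5 with 2000 variable genes, 30 components, 20 neighbours and Leiden resolution 1, without listed cell cycle genes, and non-T clusters (121 and 64 cells) were left out. The naming rule was set after the values were seen. UMIs were summed per library with conditional binomial intervals for ratios and Clopper-Pearson intervals for shares. Of these, only the ratio intervals were tested on simulated data. The simulation drew gene totals without cells, so UMIs gathered in few cells were not covered. Thinning drew 1300 UMIs per cell. All members, up to 4 genes of each other list and the 12 genes highest in carriers could be named. Members and lists were chosen with earlier results of these data known. The promoter windows come from RefSeq, and 7 members had no entry.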

Additional observations from a re-analysis of the deposited data

Results flagged for a closer look

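In states with 200 or more cells in each library, the summed phase members differed in direction between states. The S phase sum was higher in CD27_KO in Bcl2a1 cells (log2 ratio 0.35, 0.09 to 0.63), naive-like cells (0.40, 0.13 to 0.65), Ctla4 Treg-like cells (0.34, 0.02 to 0.67) and Calca Th2-like cells (0.29, 0.01 to 0.58), and lower in Ly6c2 Th1-like cells (-0.21, -0.38 to -0.04). The G2/M sum was higher in naive-like cells (0.77, 0.39 to 1.14) and Ctla4 Treg-like cells (0.68, 0.32 to 1.04) and lower in Bcl2a1 cells (-0.46, -0.84 to -0.06). Without cells with 10 or more phase members the S phase ratios were 0.24 (-0.03 to 0.52) in Bcl2a1, 0.43 (0.17 to 0.69) in naive-like, 0.14 (-0.20 to 0.48) in Ctla4 Treg-like, 0.12 (-0.16 to 0.42) in Calca Th2-like and -0.09 (-0.27 to 0.08) in Ly6c2 Th1-like cells, so of these 5 only the naive-like interval excluded 0. The G2/M ratios were then 0.80 (0.42 to 1.17) in naive-like, 0.08 (-0.30 to 0.47) in Ctla4 Treg-like, where 4 CD27_KO cells were left out, and -0.60 (-0.99 to -0.20) in Bcl2a1 cells. Without phase carriers the G2/M ratio in Bcl2a1 cells was 0.26 (-0.29 to 0.86). Intervals of other states also excluded 0 once cells with 10 or more members were left out. Slamf6 cells then had an S phase ratio of 0.26 (0.03 to 0.48), and Areg Treg-like cells a G2/M ratio of 0.34 (0.07 to 0.59). Each state has 1 library per genotype, so the difference between states was not tested.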

How the results depend on the processing

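No paired analysis was possible because each group has 1 library. Rules with 10 or more members, clusterings without the further genes, the set without histone-led cells, equal state shares of levels, and other cell filters at equal shares were chosen after seeing the data. The S phase sum, 0.47, was 0.29 centred on the median gene (a shift of 0.17), 0.38 without ribosomal and mitochondrial genes, 0.37 in cells of at least 1000 genes and 0.28 with each cell counted once per gene, and the number of S phase members 1.5-fold higher went from 5 to 2, 3, 3 and 1. The G2/M sum, 0.63, was 0.46, 0.54, 0.53 and 0.28 under the same settings, and its 13 higher members became 8 with each cell counted once. The median over all genes, 0.17, was 0, 0.083, 0.12 and 0.14 under these settings. The share of all genes 1.5-fold higher under them is not given here, so these counts have no background beside them. Without carriers by all 40 members, without phase carriers and without cells with 10 or more, the S phase sum was 0.030, 0.14 and 0.24 and the G2/M sum -0.23, -0.045 and 0.038. At equal state shares they were 0.11 and 0.094, and 0.30 and 0.55 with the further genes left out. The phase carrier ratio, 1.67, was 1.25 for 2 or more members, 2.09 for 5 or more, 2.87 for 10 or more and 1.35 without histone-led cells. The ratio by all 40 members, 1.20, was 1.11 for 2 or more, 1.67 for 5 or more, 1.03 at 2000 UMIs and 0.955 in cells of at least 1000 genes, the last in the other direction. The equal-share ratio of 0.96 became 1.35 with the further genes left out, 1.13 and 1.07 at resolutions 0.5 and 1.5, 1.08 with cell cycle genes, 0.91 with another seed, 1.05 without cell filter and 1.13 in cells of at least 1000 genes, so its side of 1 is not settled. The S phase share of carriers' UMIs, 49.8% and 51.7%, was 58.4% and 55.6% without thinning, 43.9% and 45.7% for 5 or more members, 38.4% and 35.3% for 10 or more, and 46.6% in CD27_KO for 10 or more without thinning. At 20 UMIs the higher genes went from 10 of 37 to 16 of 45 (other S phase), 21 of 32 to 35 of 50 (other G2/M) and 2 of 24 to 5 of 29 (cyclins and inhibitors). The share over all genes also rose, from 7.10% to 10.7%. Stmn1 turned to -0.15 and Tubb5 to -0.17 with each cell counted once, and Tubb5 to -0.091 centred and -0.0076 without ribosomal and mitochondrial genes. At equal state shares 15 members whose interval had excluded 0 turned: Mcm3 (-0.030), Mcm4 (-0.074), Tyms (-0.13), Pclaf (-0.085), Birc5 (-0.047), Ccna2 (-0.25), Ccnb2 (-0.28), Nusap1 (-0.37), Cenpa (0.17), Cenpf (-0.27), Tpx2 (-0.094), Cdc20 (-0.41), Stmn1 (-0.24), Tubb5 (-0.0043) and Cks1b (-0.22). Of members whose interval included 0, Tk1 (-0.62), Ccne1 (-0.66), Ccne2 (-0.025), Ccnb1 (-0.51), Aurka (-0.62), Bub1 (-0.092) and Bub1b (-0.12) turned. With the further genes also left out, Cenpa (0.14), Tk1 (-0.18) and Ccne1 (-0.16) turned. The cause of these changes was not tested. Sparse members, such as Bub1 with 10 and 24 UMIs, are limited by depth.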
